A study of Mus musculus with 18 samples.

Results

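The 7 genes followed here belong to the disease-associated microglia programme and were chosen by symbol, with earlier results of these data known. They were read across the 4 genotype groups and are *Igf1*, *Gpnmb*, *Itgax*, *Lgals3*, *Cd9*, *Ank* and *Cd52*, 7 of the 55536 genes in the count table. The data are RNA sequencing counts of microglia pulled from mouse striatum on beads that bind CD11b, which myeloid cells carry at their surface, in 18 samples: 5 WT, 5 Q175, 3 Tyrobp-/- and 5 Q175;Tyrobp-/-. Q175 mice model Huntington's disease and carry an expanded CAG repeat in 1 *Huntingtin* allele, and Tyrobp-/- mice lack both copies of *Tyrobp*, which encodes the DAP12 signalling adaptor of TREM2 and other myeloid receptors, from birth and in every cell type. Q175;Tyrobp-/- mice carry both changes, and all groups have a C57BL/6 background, which the study's methods give as C57Bl6/J. The study calls the animals adult, and their age was not given in the sources used here. Females were 1 of 5 WT, 4 of 5 Q175, 2 of 3 Tyrobp-/- and 2 of 5 Q175;Tyrobp-/- samples. Sex and genotype are thus partly mixed in every comparison except that of *Tyrobp*-null with *Tyrobp*-intact samples over all 18. There, females were 4 of 8 null and 5 of 10 intact samples, though not evenly within each *Huntingtin* genotype. The labels do not tie samples to named animals, and p-values measure the spread between these samples.

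Disease-associated microglia are a state first described near amyloid plaques in which microglia take down their homeostatic genes and take up genes for phagocytosis, lysosomes and lipid handling. Entry into the full state, called stage 2, is known to need TREM2, which signals through the TYROBP adaptor. Igf1 is a secreted growth factor, Gpnmb a lysosomal and surface glycoprotein related to the melanosome protein Pmel, Itgax the integrin chain CD11c, Lgals3 the sugar-binding galectin-3, Cd9 a tetraspanin, Ank a transporter for the export of pyrophosphate, and Cd52 a short GPI-anchored glycopeptide of leukocytes.

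Of the 7 genes, 6 matched a promoter entry in RefSeq for GRCm38.p6. The 250 bases before the start of each were searched on both strands for CACGTG (an E-box read by MITF and its relatives), GAGGAA (the core of ETS sites such as those of PU.1) and TGANTCA (AP-1), motifs of factors known from myeloid cells. Among 32851 windows of the same length, CACGTG was found in 6.02%, GAGGAA in 23.3% and TGANTCA in 6.75%. TGANTCA was found before *Itgax* (bases -56 to -50 from the start) and *Igf1* (-37 to -31), and GAGGAA before *Igf1* (-60 to -55) and, on the reverse strand, *Ank* (-71 to -66). None of the 3 motifs was in the windows of *Gpnmb*, *Lgals3* or *Cd9*. The 3 stretches outside annotated exons shown here are those of *Itgax* and *Gpnmb*, whose levels were high in largely the same samples as *Igf1*, and of *Ank*, whose profile lay farthest from that of another member. Capitals mark a motif, and a match is a description of letters only. The window of *Igf1* lies within the exons of other transcripts of the gene and is not shown.
Itgax, chr7:128129300-128129546, plus strand: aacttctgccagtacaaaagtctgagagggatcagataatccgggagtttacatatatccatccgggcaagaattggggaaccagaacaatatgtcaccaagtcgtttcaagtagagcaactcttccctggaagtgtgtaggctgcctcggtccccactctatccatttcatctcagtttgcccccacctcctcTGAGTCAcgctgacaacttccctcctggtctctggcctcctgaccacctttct
Gpnmb, chr6:49036268-49036517, plus strand: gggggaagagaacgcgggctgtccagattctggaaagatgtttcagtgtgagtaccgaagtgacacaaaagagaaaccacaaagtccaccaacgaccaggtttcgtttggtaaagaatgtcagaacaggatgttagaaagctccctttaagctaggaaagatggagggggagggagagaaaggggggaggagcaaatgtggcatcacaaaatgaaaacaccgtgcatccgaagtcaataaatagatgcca
Ank, chr15:27466427-27466676, plus strand: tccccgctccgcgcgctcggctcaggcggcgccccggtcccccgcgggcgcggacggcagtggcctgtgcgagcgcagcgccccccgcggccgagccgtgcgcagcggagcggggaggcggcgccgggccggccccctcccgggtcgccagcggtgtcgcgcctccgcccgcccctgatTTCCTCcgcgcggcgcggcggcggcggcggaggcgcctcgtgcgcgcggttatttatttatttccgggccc
The *Ank* stretch is rich in G and C (81.2% of its bases), against 50.2% for *Itgax* and 47.2% for *Gpnmb*.

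Total counts ran from 11260410 to 29771983 per sample. *Tyrobp* checked the labels: it lay between 9.59 and 22.3 CPM (counts scaled to the library's size, TMM-normalised) in the 8 null samples and between 198 and 442 CPM in the 10 intact samples. All 12 homeostatic microglial markers, such as *P2ry12* and *Tmem119*, were detected in all 18 samples, with a summed level of 12652 to 25731 CPM. The samples also held transcripts of other brain cells: the summed level of 10 astrocyte markers was 322 to 1789 CPM and that of 10 oligodendrocyte markers 1671 to 6677 CPM, and the astrocyte sum was above all 5 WT samples (353 to 476 CPM) in all 5 Q175 samples (539 to 1789 CPM). In bulk samples, fewer cells of a type and less RNA per cell cannot be told apart.

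*Igf1* encodes insulin-like growth factor 1, and the gene lies at chr10:87858265-87937042 on the plus strand of GRCm38. It was low in the null samples and spread widely in the Q175 samples. In WT replicates 1, 2, 6, 7 and 8 its level was 6.02, 3.85, 3.03, 5.81 and 7.39 CPM. In Q175 replicates 3, 4, 9, 14 and 17 it was 1.85, 1.75, 0.926, 6.93 and 13.3 CPM. Thus 3 of the 5 Q175 samples lay below every WT sample, while replicate 17 lay above all of them. In Tyrobp-/- replicates 15, 19 and 20 it was 1.21, 0.328 and 2.25 CPM, and in Q175;Tyrobp-/- replicates 5, 11, 12, 13 and 16 it was 0.849, 0.595, 0.896, 0.294 and 0.472 CPM. Neither null group overlapped with its intact counterpart, though the highest Q175;Tyrobp-/- sample (0.896 CPM, 26 counts) and the lowest Q175 sample (0.926 CPM, 23 counts) were close. Over the 10 intact samples the level covered a 14.3-fold range, and 3 of them lay below the highest null sample.

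**Figure D1:**
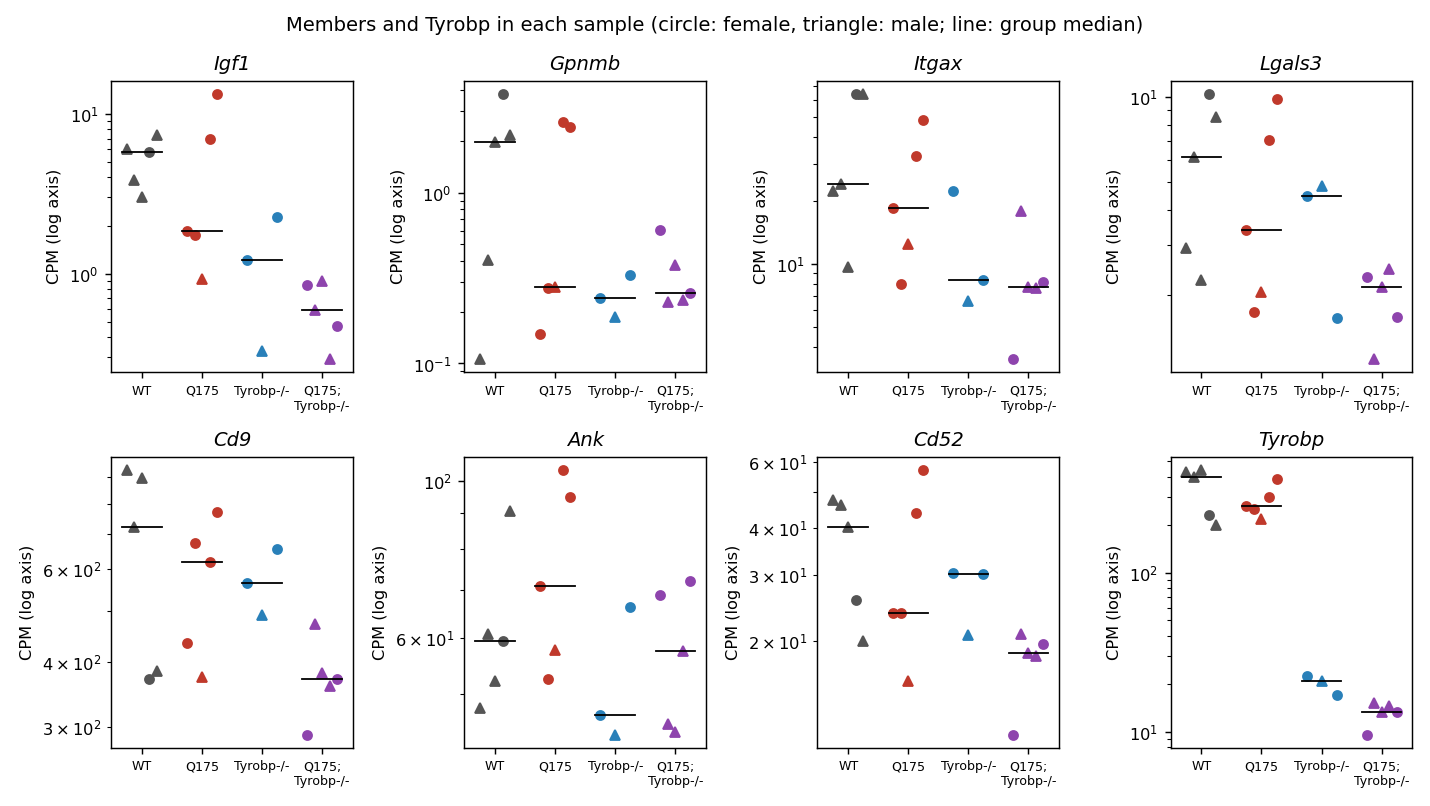
Level of each of the 7 genes and of *Tyrobp* in each sample, in TMM-normalised CPM on a log axis, by genotype group. Circles are female and triangles male samples, lines are group medians. *Igf1* lies between 0.294 and 0.896 CPM in the 5 Q175;Tyrobp-/- samples and between 0.926 and 13.3 CPM in the 5 Q175 samples.

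The test was the quasi-likelihood test of edgeR, and genes were called at a Benjamini-Hochberg adjusted p under 0.1 over all genes tested. Over all 18 samples, with a term for the *Huntingtin* genotype, *Igf1* fell 6.01-fold with *Tyrobp* deletion (log2 fold change -2.59 ± 0.49 SE, adjusted p = 0.0308). It was the only one of the 7 genes called in this comparison, in which 30 of 18613 genes were called (0.161%), 23 of them lower. *Igf1* was lower in the null sample in 76 of the 80 pairs of a null and an intact sample, in 20 of 20 pairs among males and 18 of 20 among females. Of the 80 pairs, 15 set Tyrobp-/- against WT and 25 Q175;Tyrobp-/- against Q175, and the others differ in both genotypes. Among males, the intact samples were mostly WT and the null ones mostly Q175;Tyrobp-/-. These counts, and those of other members below, are a description, and no share over all genes was taken. With sex as a term the call held, as it did with each sample left out in turn, where the log2 fold change ran from -2.90 to -2.16 and the adjusted p from 0.0101 to 0.0880. The smallest change was without Q175 replicate 17.

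The same deletion was then read within each *Huntingtin* genotype; these 2 comparisons have no sample in common, and both enter the comparison over 18 samples. In Q175;Tyrobp-/- against Q175, *Igf1* had a log2 fold change of -2.96 ± 0.68 (unadjusted p = 0.000886, adjusted p = 0.533, edgeR) and was not called, while DESeq2's Wald test called it (adjusted p = 0.00347). edgeR called 2 of 18059 genes in this comparison (0.0111%) and DESeq2 41 (0.227%). All 25 pairs were lower, which held for 71 of the genes tested (0.393%). With sex as a term the log2 fold change was -2.30 in edgeR and -2.33 in DESeq2, whose call was lost (adjusted p = 0.304), and without Q175 replicate 17 it was -2.21 in edgeR. In Tyrobp-/- against WT it was -2.06 ± 0.57 (unadjusted p = 0.00436, adjusted p = 0.565, edgeR), again called by DESeq2 alone (adjusted p = 0.0483), where edgeR called 4 of 18017 genes (0.0222%) and DESeq2 168 (0.932%). All 15 pairs were lower, as for 419 genes tested (2.33%), and the change was -2.82 without Tyrobp-/- replicate 20 and -1.58 without replicate 19. The interaction term, which asks whether the deletion acts differently in the 2 *Huntingtin* genotypes, was -0.85 ± 0.93 for *Igf1* (adjusted p = 0.806, edgeR). Its size was thus under its error, and its sign turned with sex as a term (0.53) or a score for other cell types as a term (0.30).

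*Gpnmb* lies at chr6:49036546-49070929 on the plus strand and was the scarcest of the 7 genes. WT replicates 1, 2, 6, 7 and 8 had 2, 6, 36, 52 and 40 counts (0.106, 0.405, 1.99, 3.78 and 2.19 CPM). Q175 replicates 3, 4, 9, 14 and 17 had 2, 3, 7, 40 and 54 counts (0.148, 0.276, 0.282, 2.59 and 2.43 CPM). The intact samples fell into 5 with at least 36 counts and 5 with at most 7. The 3 Tyrobp-/- samples had 4, 4 and 5 counts and the Q175;Tyrobp-/- samples 10, 5, 11, 4 and 6, so that no null sample reached the higher set. The 5 lower intact samples had 0.106 to 0.405 CPM, and WT replicate 1 and Q175 replicate 3 were below every null sample. Over 18 samples the log2 fold change was -2.15 ± 0.65 (adjusted p = 0.368, edgeR), with 57 of 80 pairs lower. DESeq2 called it (adjusted p = 0.0800), as it did 151 of the genes tested (0.811%), but not with sex as a term (-2.01, adjusted p = 0.103, DESeq2).

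*Itgax* lies at chr7:128129547-128150657 on the plus strand, on the chromosome that also holds *Tyrobp* (chr7:30413760-30417585). In WT replicates 1, 2, 6, 7 and 8 its level was 22.3, 24.0, 9.60, 64.1 and 64.2 CPM, and in Q175 replicates 3, 4, 9, 14 and 17 it was 18.4, 8.001, 12.4, 32.5 and 48.3 CPM. The Tyrobp-/- replicates 15, 19 and 20 had 22.2, 6.64 and 8.40 CPM, and the Q175;Tyrobp-/- replicates 5, 11, 12, 13 and 16 had 3.52, 17.8, 7.75, 7.69 and 8.19 CPM. The 4 highest samples were all intact (WT replicates 7 and 8, Q175 replicates 14 and 17), and 4 of the 10 intact samples lay below the highest null one. The log2 fold change over 18 samples was -1.51 ± 0.41 (adjusted p = 0.271, edgeR), with 71 of 80 pairs lower, and DESeq2 called it (adjusted p = 0.0396).

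*Lgals3*, at chr14:47367751-47386160 on the plus strand, was at 2.93, 6.14, 2.26, 10.2 and 8.49 CPM in WT replicates 1, 2, 6, 7 and 8 and at 3.40, 1.75, 2.05, 7.06 and 9.84 CPM in Q175 replicates 3, 4, 9, 14 and 17. In the Tyrobp-/- replicates 15, 19 and 20 it was at 4.48, 4.87 and 1.65 CPM. The Q175;Tyrobp-/- samples lay closest together, between 1.19 and 2.47 CPM. WT replicates 7 and 8 and Q175 replicates 14 and 17 were again the 4 highest samples, as for *Itgax*. Over 18 samples the log2 fold change was -1.07 ± 0.36 (adjusted p = 0.430, edgeR), with 62 of 80 pairs lower.

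The 2 other surface proteins were ordered differently. *Cd9*, at chr6:125460266-125494791 on the minus strand, was at 927, 722, 894, 371 and 384 CPM in WT replicates 1, 2, 6, 7 and 8, and at 433, 674, 374, 619 and 770 CPM in Q175 replicates 3, 4, 9, 14 and 17. WT replicates 7 and 8, high in *Itgax* and *Lgals3*, were the lowest WT samples here. It was at 565, 491 and 655 CPM in the Tyrobp-/- replicates 15, 19 and 20, and between 290 and 472 CPM in the Q175;Tyrobp-/- samples. *Cd52*, at chr4:134082448-134095082 on the minus strand, was at 47.6, 46.0, 40.3, 25.8 and 20.04 CPM in the WT samples and at 23.7, 23.8, 15.6, 43.9 and 57.1 CPM in the Q175 samples, in the same replicate order. The Tyrobp-/- samples had 30.3, 20.7 and 30.2 CPM and the Q175;Tyrobp-/- samples 11.3 to 20.96 CPM. WT replicates 7 and 8 were the lowest WT samples for *Cd52* as well. Over 18 samples the log2 fold changes were -0.49 ± 0.20 for *Cd9* (adjusted p = 0.498) and -0.72 ± 0.23 for *Cd52* (adjusted p = 0.403, edgeR). The library kit does not mark strand, and 218 exonic bases of *Cd9* and 172 of *Cd52* are shared with overlapping genes (for *Cd52*, the opposite-strand *Crybg2*), whose reads cannot be told apart there.

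*Ank*, at chr15:27466677-27594909 on the plus strand, varied least, from 47.8 to 103 CPM in the intact and from 43.8 to 72.3 CPM in the null samples. Q175 replicates 14 and 17 (103 and 94.9 CPM) and WT replicate 8 (90.6 CPM) were the highest, and the other 7 intact samples lay within the range of the null ones. Its log2 fold change over 18 samples was -0.36 ± 0.16 (adjusted p = 0.539, edgeR).

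All 7 genes had negative fold changes with *Tyrobp* deletion over 18 samples, and all 7 had an unadjusted p under 0.05. Among all genes tested, 1379 were lower at that level (7.41%) and 53.9% had a negative fold change. Because the 7 genes were chosen with earlier results of these data known, their counts beside the shares of all genes are a description only. In Q175;Tyrobp-/- against Q175 alone, 6 of the 7 were lower at an unadjusted p under 0.05, *Ank* being the exception, against 823 of all genes (4.56%). In Tyrobp-/- against WT 3 of the 7 were lower at that level (*Igf1*, *Gpnmb* and *Itgax*), against 568 of all genes (3.15%). *Lgals3*, *Cd9*, *Ank* and *Cd52* had log2 fold changes between -0.71 and -0.22 there. No interaction term of a member had an unadjusted p under 0.05 in edgeR, against 6.01% of all genes, and their values lay between -0.85 ± 0.93 (*Igf1*) and 1.05 ± 1.30 (*Gpnmb*).

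**Figure D2:**
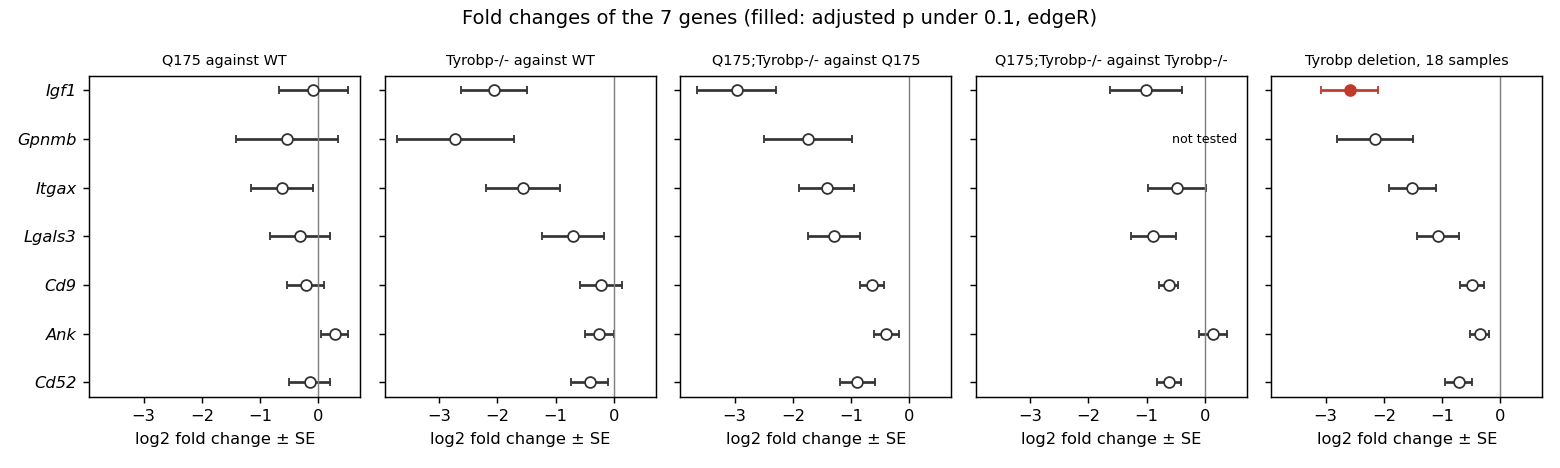
Log2 fold changes of the 7 genes in 5 comparisons from edgeR, with bars of 1 SE. Filled symbols have an adjusted p under 0.1: *Igf1* over 18 samples (-2.59 ± 0.49) is the only one.

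Q175 against WT asks what the Huntington's disease allele does to these genes where *Tyrobp* is intact. No member was called by edgeR, which called 0 of 18266 genes (0.00%; 1140 genes had an unadjusted p under 0.05, or 6.24%), or by DESeq2, which called 234 (1.28%), 231 of them higher. The log2 fold changes were -0.09 ± 0.60 for *Igf1*, -0.54 ± 0.88 for *Gpnmb*, -0.63 ± 0.53 for *Itgax* and -0.31 ± 0.52 for *Lgals3*. For *Cd9* it was -0.22 ± 0.31, for *Cd52* -0.15 ± 0.35 and for *Ank* 0.28 ± 0.23. For 5 of the 7 genes the size was under its error. The group means hide the spread: *Igf1* had a mean of 4.94 ± 5.22 CPM (SD, n = 5) in Q175 and 5.22 ± 1.76 CPM (n = 5) in WT, but medians of 1.85 and 5.81 CPM. Without Q175 replicate 17 the log2 fold change of *Igf1* was -0.89, and without replicate 9 it was 0.16. These values also moved with sex as a term, where edgeR gave -1.16 for *Igf1*, -1.71 for *Gpnmb*, -1.28 for *Itgax* and -1.08 for *Lgals3*. With a score for the other cell types as a term they were -2.82, -3.27, -1.99 and -1.85, with -1.36 for *Cd52*, -0.66 for *Cd9* and -0.51 for *Ank*, whose sign turned. The score joins astrocyte, neuronal and oligodendrocyte markers, and the astrocyte sums of all Q175 samples were above those of WT. Score and genotype are thus mixed in these fits, which cannot cleanly separate them. No member was called with either term by edgeR or DESeq2, and the lowest adjusted p was 0.367, for *Igf1* in DESeq2 with the score.

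Q175 replicates 14 and 17, both female, were the 2 highest Q175 samples for *Igf1*, *Gpnmb*, *Itgax*, *Lgals3*, *Ank* and *Cd52*. They also had the 2 highest summed levels of oligodendrocyte markers in the group, 4987 and 6677 CPM against 2823 to 3746 CPM in the other 3, and replicate 14 the highest of astrocyte markers, 1789 CPM against 539 to 856 CPM. With a score for the other cell types as a term, the Q175 against WT values given above were lower for all 7 members than without it. Over 18 samples, the edgeR call of *Igf1* held with that score (log2 fold change -2.52, adjusted p = 0.0211). The fit of DESeq2 with the score, added after the data were seen, had -2.49 (adjusted p = 1.82e-06).

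Q175;Tyrobp-/- against Tyrobp-/- shares its Q175;Tyrobp-/- samples with an earlier comparison and its Tyrobp-/- samples with another. Here *Cd9* had a log2 fold change of -0.62 ± 0.16 (adjusted p = 0.291, edgeR) and was called by DESeq2 (adjusted p = 0.0478). Its levels were 375 ± 65.0 CPM (n = 5) in Q175;Tyrobp-/- and 570 ± 82.4 CPM (n = 3) in Tyrobp-/-, with no overlap. edgeR called 0 of 17723 genes (0.00%; 2343 genes had an unadjusted p under 0.05, or 13.2%), DESeq2 called 680 (3.84%), and 1105 genes were lower without overlap (6.23%). *Cd52* had -0.62 ± 0.21 and *Lgals3* -0.89 ± 0.39 (adjusted p = 0.295 and 0.369, edgeR), and with *Cd9* these were the 3 of 6 tested members lower at an unadjusted p under 0.05, as were 8.24% of all genes. *Igf1* had -1.01 ± 0.62 (adjusted p = 0.522, edgeR), which was -1.48 without Tyrobp-/- replicate 19 and -0.24 without replicate 20. For *Itgax* the value was -0.48 ± 0.50 and for *Ank* 0.14 ± 0.24, while *Gpnmb* reached 1 CPM in none of the 8 samples and was not tested. The fall was not particular to members: all 8 other tetraspanins were lower (median log2 fold change -0.31, 2 called by DESeq2). All 7 stage 1 genes, *Tyrobp* among them, were lower too (median -0.61, 3 called by DESeq2). So were 8 of 12 other stage 2 genes (median -0.24) and 9 of 12 homeostatic genes (median -0.13), against 51.3% of all genes. The summed level of 8 border-associated macrophage markers was also lower in Q175;Tyrobp-/-, at 7.34 to 17.7 CPM against 20.98 to 25.2 CPM. Dendritic cell markers were lower without overlap as well (4.85 to 7.14 CPM against 8.40 to 10.7 CPM). The median sum of monocyte and neutrophil markers was lower too (24.5 against 70.2 CPM). The median sum of astrocyte markers was higher (853 against 602 CPM), as were those of oligodendrocyte and neuronal markers, all with overlapping ranges. The mean sums of astrocyte (746 against 836 CPM) and neuronal markers (412 against 466 CPM) were lower. By gene, 8 of 10 astrocyte, 7 of 10 neuronal and 5 of 10 oligodendrocyte markers had negative fold changes, so no direction is clear for these lists. The *Tyrobp* transcript left in these null samples had a log2 fold change of -0.61 ± 0.15 (adjusted p = 0.291, edgeR), without overlap. DESeq2 called it (adjusted p = 0.0414). The part of these differences in the levels of *Cd9* and *Cd52* was not tested.

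**Figure D3:**
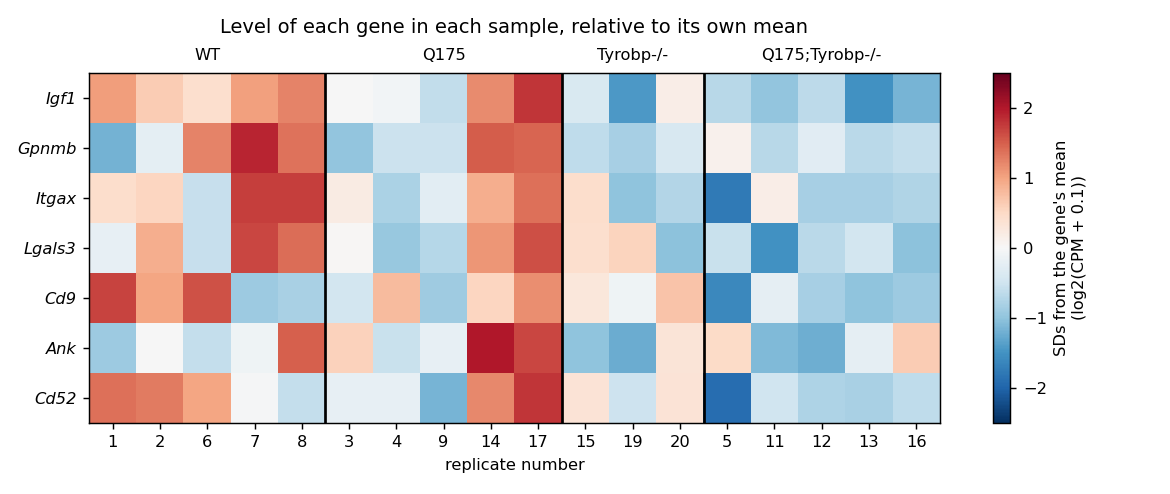
Level of each of the 7 genes in each of the 18 samples, as the number of SDs from that gene's own mean on the log2(CPM + 0.1) scale, with replicate numbers on the x axis and groups side by side. Q175 replicates 14 and 17 are above the mean for all 7 genes, WT replicates 7 and 8 are above it for *Itgax* and *Lgals3* and below it for *Cd9*.

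Levels between genes were compared per kilobase of exon. In WT the order was *Cd9* (323 CPM per kb), *Cd52* (30.3), *Ank* (17.2), *Itgax* (7.67), *Lgals3* (3.24), *Igf1* (0.527) and *Gpnmb* (0.260). The mean ± SD overlapped for the neighbours *Cd52* and *Ank*, *Ank* and *Itgax*, *Itgax* and *Lgals3*, and *Igf1* and *Gpnmb*. All genes were read in the same samples, so this overlap cannot decide whether a pair differed. *Ank* was above *Itgax*, *Itgax* above *Lgals3* and *Igf1* above *Gpnmb* in every WT sample. The last was by little in replicate 6 (0.306 against 0.305 CPM per kb). *Cd52* was above *Ank* in all WT samples but replicate 8 (16.9 against 25.1 CPM per kb). The same order of means held in Q175 and Tyrobp-/-. In Q175;Tyrobp-/- *Ank* (15.97 ± 3.59 CPM per kb) stood before *Cd52* (14.95 ± 3.17), and which of them was higher varied between the samples.

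The likeness of profiles was measured as the root mean square difference between standardised log2 CPM over the 18 samples, where 0 is an identical shape and 1.37 the value of 2 uncorrelated profiles. All genes share the same libraries and depths, and the values are a description. Among the members, *Cd9* and *Cd52* were nearest (0.466), followed by *Igf1* and *Itgax* (0.659) and *Itgax* and *Lgals3* (0.670). *Cd9* and *Ank* were farthest apart (1.41). Among 16082 genes with a mean of at least 1 CPM, the 5 nearest to *Igf1* were *Cst7* (cystatin F, 0.394), *Rai14* (0.406), *Ccl3* (a chemokine, 0.421), *Clec7a* (the receptor Dectin-1, 0.443) and *Postn* (periostin, 0.455), all nearer than any other member. *Cst7*, *Rai14*, *Ccl3* and *Clec7a* were themselves among the 30 genes called over 18 samples. Likeness to *Igf1* and these calls come from the same samples, so the calls are no separate evidence. With a mean of at least 5 CPM, the 2 nearest to *Cd9* were the protease *Ctsl* (0.179) and *Ms4a6d* (0.269), to *Itgax* the kinase *Fgr* (0.483) and *Cxcl16* (0.492), to *Lgals3* *Fgr* (0.544) and *Plaur* (0.573). For *Ank* they were *Aplp2* (0.445) and *Apoe* (0.506), for *Cd52* *Tefm* (0.383) and *H2-Oa* (0.388), and for *Gpnmb* *Fam20c* (0.688) and *Chst1* (0.771).

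Genes known to work with each member were read in the comparison over 18 samples, where the median log2 fold change of all genes was -0.02 and edgeR called 0.161% of them. Of 15 other genes of the IGF system, 13 were tested and none was called by edgeR, with 10 negative values and a median of -0.22. *Igf1r*, the receptor of Igf1, stood at 95.05 ± 26.5 CPM in WT (n = 5) and had a log2 fold change of -0.14 ± 0.13. *Igf2r*, the mannose-6-phosphate receptor that clears Igf2, had -0.60 ± 0.15 (adjusted p = 0.237, edgeR) and was called by DESeq2 (adjusted p = 0.0654). The insulin receptor substrate *Irs2* had -0.32 ± 0.11 (adjusted p = 0.430, edgeR). *Igf2* and *Igfals* stayed below 1 CPM in every sample and were not tested. The binding protein gene *Igfbp2*, known from astrocytes, had 2.36 ± 0.67 in Q175 against WT (adjusted p = 0.365, edgeR) and was called there by DESeq2 (adjusted p = 0.0377), in samples whose astrocyte sums were all above those of WT. The part of astrocyte transcripts in it was not tested.

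All 7 genes of the beta-2 integrin list, which holds the shared chain *Itgb2* and the CD11b gene *Itgam*, had positive values over 18 samples (median 0.20) and none was called. *Itgam*, whose protein the beads bind, had 0.59 ± 0.27 (adjusted p = 0.533, edgeR). None of 5 genes for galectins or their binding partner and none of 8 other tetraspanins was called, with medians of 0.14 and 0.06. Nor was any of 3 tested MITF and TFE genes or of 6 phosphate and pyrophosphate genes, with medians of -0.14 and -0.15. *Cd63*, a lysosomal tetraspanin, had -0.52 ± 0.18 (adjusted p = 0.432) and *Mitf* itself -0.14 ± 0.11 (adjusted p = 0.763, edgeR). Of 5 genes around CD52, 1 was called: *Siglecg*, of the Siglec family that includes a receptor for soluble CD52 in humans and on chromosome 7 as is *Tyrobp*, rose with deletion by 1.98 ± 0.32 on the log2 scale (adjusted p = 0.00646, edgeR). Its means were 7.52 ± 4.02 CPM in Tyrobp-/- (n = 3) and 7.19 ± 2.11 CPM in Q175;Tyrobp-/- (n = 5), against 1.76 ± 0.95 CPM in WT and 1.81 ± 0.98 CPM in Q175 (n = 5 each).

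**Figure D4:**
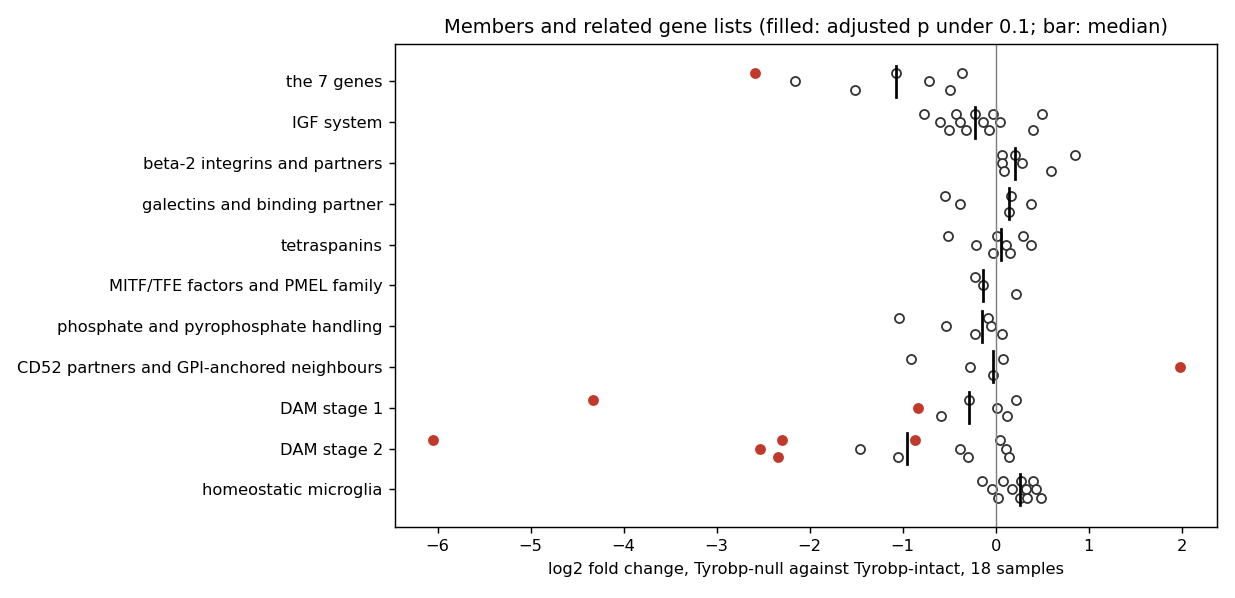
Log2 fold change with *Tyrobp* deletion over 18 samples for the 7 genes and for each tested gene of 10 related lists. Filled points have an adjusted p under 0.1 (edgeR) and bars are medians. The median is -0.96 for the 12 other stage 2 genes and 0.27 for the 12 homeostatic genes. *Tyrobp*, the deleted gene, is the lowest point of the stage 1 list.

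Among 12 other stage 2 genes of the disease-associated programme, 5 were called lower over 18 samples and none higher, with a median log2 fold change of -0.96. The 5 were *Spp1* (osteopontin, -6.05 ± 0.73), the lipoprotein lipase gene *Lpl* (-2.53 ± 0.43), *Cst7* (-2.34 ± 0.33), *Clec7a* (-2.30 ± 0.30) and the growth factor gene *Csf1* (-0.86 ± 0.17), with adjusted p-values from 0.000402 to 0.0456 (edgeR). *Igf1*, at -2.59, lay within this range. Over all genes, edgeR called 30 of 18613 (0.161%), 23 of them lower. The list was chosen with earlier results of these data known, so its count is a description. *Trem2* itself had 0.11 ± 0.16 (adjusted p = 0.865) and *Fabp5* 0.15 ± 0.31 (adjusted p = 0.924, edgeR). Of the 7 stage 1 genes, those called were *Tyrobp*, the deleted gene, and the lysozyme gene *Lyz2* (-0.84 ± 0.17, adjusted p = 0.0726, edgeR). None of 12 homeostatic genes was called (median 0.27).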

How the data were processed

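Microglia were bead-purified from striatum (1 striatum per sample in the methods, 2 in the labels) and libraries made with a low-input SMART-Seq kit. The authors aligned reads with STAR to GRCm38 (the submitters' processing notes name GRCh38) and used featureCounts for the counting. Raw counts were deposited by the authors on 55536 Ensembl genes, all matched to GENCODE M21, which gave symbols, coordinates and exonic lengths. The 2 columns of the table with no labelled sample were not used. Counts were scaled by TMM, and each comparison took in every gene that reached 1 CPM in any of its samples, for the test in edgeR 4.0.16 (quasi-likelihood, Benjamini-Hochberg adjusted p under 0.1, R 4.3.3). DESeq2 1.42.0, other scalings and filters, sex, a non-microglial marker score, 1 fit over all groups and leaving out each sample were alternatives, and DESeq2 with sex or with the score was added after the data were seen. The code was tested on simulated data. Members and gene lists were chosen with earlier results of these data known. Named genes are the members, *Tyrobp*, list genes called or with large values or high levels, and the nearest profiles. Reads carry no molecular identifiers, so counts of a few reads, as for *Gpnmb*, are imprecise.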

Additional observations from a re-analysis of the deposited data

Results flagged for a closer look

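*Cd52* in Q175;Tyrobp-/- replicate 5 stood apart from its group: 11.3 CPM against 18.3 CPM in the next lowest sample, a gap of 0.721 of the group's whole range, above Dixon's critical value for 5 samples. It was the only one of 21 groups tested that passed, and chance flags about 1 in 20 such groups. The same sample had the lowest level of *Itgax* (3.52 CPM) and of *Cd9* (290 CPM) among all 18.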

How the results depend on the processing

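Over 973 refits of the members' fold changes, 930 kept their direction and their side of the threshold, 14 passed the threshold in addition, 29 changed sign and none lost a call made by edgeR with all samples. DESeq2 called in addition *Igf1* in Tyrobp-/- against WT (-2.06) and in Q175;Tyrobp-/- against Q175 (-2.96), *Cd9* in Q175;Tyrobp-/- against Tyrobp-/- (-0.60), and *Gpnmb* (-2.15) and *Itgax* (-1.48) over 18 samples. With sex it called *Igf1* in Tyrobp-/- against WT (-2.79), *Cd9* (-0.62) and *Itgax* (-1.44), and with the non-microglial score *Igf1* (-2.499 and -2.74), *Cd9* (-0.61), *Cd52* (-0.62, Q175;Tyrobp-/- against Tyrobp-/-), *Gpnmb* (-2.07) and *Itgax* (-1.58). The signs that changed were all of values not called: *Ank* in Q175 against WT with the score (-0.51, DESeq2 -0.53), *Cd9* in Tyrobp-/- against WT with sex (0.0065, DESeq2 0.0090), and interaction terms. These were *Igf1* with sex (0.53, DESeq2 0.54) or the score (0.30, DESeq2 0.23), *Itgax* with the score (-0.14, DESeq2 -0.18) and *Ank* with total counts (0.10), sex (0.26, DESeq2 0.24) or the score (0.42, DESeq2 0.41). The cause was not tested. Total-count scaling moved the median interaction of all genes to 0.15.

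Genes called in Q175 against WT numbered 234 with DESeq2 and 10 with DESeq2 and the score. In Q175;Tyrobp-/- against Q175 they numbered 41 with DESeq2, 9 without a filter, 1 at an FDR of 0.05, 1 with sex, 1 with the score, 18 and 26 with DESeq2 and these terms, and 15 in 1 fit over all groups. In Tyrobp-/- against WT they numbered 168 with DESeq2, 15 without a filter, 2 with the score, 38 and 865 with DESeq2 and sex or the score, and 8 in 1 fit. In Q175;Tyrobp-/- against Tyrobp-/- they numbered 680, and 358 and 1762 with these terms. Over 18 samples they numbered 151, and 137 and 202 with these terms, and for the interaction 2, 2 and 12.

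Leaving out 1 sample at a time, the counts ran from 1 to 5 in Q175;Tyrobp-/- against Q175, from 2 to 8 in Tyrobp-/- against WT and from 24 to 64 over 18 samples, and were 0 elsewhere (for Q175 against WT, Q175;Tyrobp-/- against Tyrobp-/- and the interaction, 1140, 2343 and 1118 genes had an unadjusted p under 0.05 with all samples). The only call of edgeR on a member, that of *Igf1* over 18 samples, was not lost. Signs changed for *Igf1* in Q175 against WT (-0.89 to 0.16), *Itgax* in Q175;Tyrobp-/- against Tyrobp-/- (-0.83 to 0.24), and the interactions of *Itgax* (-0.16 to 0.92) and *Ank* (-0.25 to 0.13). *Gpnmb*, with 2 to 54 counts, is the member that depth limits most. No paired analysis was possible because the groups compared share none of their replicate numbers.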
